A study of Mus musculus with 15 samples.

Results

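The CC chemokines of the 2 gene clusters on mouse chromosome 11 are small secreted proteins that draw leukocytes into tissue. The genes *Ccl2*, *Ccl3*, *Ccl4*, *Ccl5*, *Ccl6*, *Ccl7*, *Ccl8*, *Ccl9* and *Ccl12*, were followed here across livers of young and old mice with or without S6K1, the ribosomal protein S6 kinase encoded by *Rps6kb1*. They are 9 of the 37991 gene identifiers in the count table and were chosen on their family, their location and their known behaviour in these same libraries. Their differences between groups are therefore a description, and the adjusted p-values printed for them are those of a fit over all tested genes. Of the 9 members, 4 (*Ccl2*, *Ccl5*, *Ccl6* and *Ccl9*) had enough counts to be among the 14258 genes tested, and the other 5 are given by their counts.

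The groups were 5 female young wild-type mice aged 90 days (young WT), 5 female old wild-type mice aged 600 days (old WT) and 5 female old S6K1 knockout mice aged 600 days (old KO), all C57BL/6 and bred from heterozygous parents. The knockout is constitutive and affects every cell of the body, and no young knockout group was sequenced, so an effect of genotype cannot be separated from its interaction with age. RNA came from whole frozen liver, and in such bulk RNA fewer cells of a type and less RNA per cell cannot be told apart.

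CC chemokines act on G-protein-coupled receptors. *Ccl2*, *Ccl7*, *Ccl8* and *Ccl12* encode monocyte attractants of the MCP group, most of them ligands of CCR2. *Ccl3*, *Ccl4* and *Ccl5* encode attractants of T cells, NK cells and monocytes. *Ccl6* and *Ccl9* encode ligands of CCR1 that are found in rodents and are made mainly by myeloid cells. In liver, resident Kupffer cells, recruited monocytes, lymphocytes and stressed hepatocytes are all known sources of chemokines of this family.

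On the NCBIM37 build (mm9), used by the authors, the MCP genes lay together at chr11:81849073-81850955 (*Ccl2*, plus strand), chr11:81859214-81861027 (*Ccl7*, plus), chr11:81915347-81916902 (*Ccl12*, plus) and chr11:81928687-81930301 (*Ccl8*, plus). The second cluster held *Ccl5* (chr11:83339280-83344020, minus), *Ccl9* (chr11:83386421-83392138, minus), *Ccl6* (chr11:83401384-83406589, minus), *Ccl3* (chr11:83461346-83462857, minus) and *Ccl4* (chr11:83476086-83478185, plus). All 9 are annotated as protein-coding. *Rps6kb1* itself lies on the same chromosome at chr11:86312373-86358307, so that the nearer cluster is 2.83 to 2.97 Mb and the MCP cluster 4.38 to 4.46 Mb from the disrupted gene.

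*Ccl9* and *Ccl6* are neighbours on the same strand and are the pair on which the genotype comparison turns, so the DNA just before their start sites is shown here. Each line gives the 250 bases upstream of the RefSeq start site on GRCm38.p6, 5′ to 3′ on the strand of the gene, at chr11:83578637-83578886 for *Ccl9* and chr11:83593088-83593337 for *Ccl6*. These coordinates belong to a later build than the positions above. Capitals mark the TATA box letters TATAAA and the NF-kB consensus wherever they were found on either strand.
Ccl9: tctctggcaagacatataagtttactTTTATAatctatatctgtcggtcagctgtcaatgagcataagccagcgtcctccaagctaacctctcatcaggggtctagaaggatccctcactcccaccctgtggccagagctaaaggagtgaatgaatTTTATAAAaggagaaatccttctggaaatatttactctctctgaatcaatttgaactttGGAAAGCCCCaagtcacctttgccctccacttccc
Ccl6: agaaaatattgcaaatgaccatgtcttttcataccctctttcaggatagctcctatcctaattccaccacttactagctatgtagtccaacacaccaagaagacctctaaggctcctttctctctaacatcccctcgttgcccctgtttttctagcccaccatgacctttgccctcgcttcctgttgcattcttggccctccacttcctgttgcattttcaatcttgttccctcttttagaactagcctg
In the *Ccl9* window TATAAA occurred 3 times, and 2 of these matches overlap on opposite strands, while the NF-kB consensus occurred once. The TATAAA matches began 224 and 94 bases before the start on the strand opposite to the gene, and 92 bases before it on the gene's strand. None of these letters was present in the *Ccl6* window. Among 32851 RefSeq promoter windows of the same length, 12.4% held TATAAA and 5% the NF-kB consensus. The letters GAGGAA, a sequence bound by the myeloid factor PU.1, were in neither window, and 23.3% of all windows held them. Only these exact letters were searched for that factor. Their absence does not show that either window lacks a site for it, since other sequences it may bind were not looked for. Windows were at hand for 3 further members: TATAAA stood in those of *Ccl8* and *Ccl12* and GAGGAA in those of *Ccl3*, *Ccl8* and *Ccl12*. The TATAAA of *Ccl8* and *Ccl12* began 32 and 31 bases before the start, on the gene's strand. A match is a description of letters and not evidence of binding.

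The libraries held 21801754 to 38065359 counts. *Rps6kb1* fell to 17.0 ± 2.23 CPM (counts per 1000000 of the TMM-scaled library total; mean ± SD, n = 5) in old KO, from 38.4 ± 4.21 in old WT and 38.3 ± 3.14 in young WT, with every old KO library below every WT library. Young WT 6 had the lowest total and a median correlation of 0.979 with the rest of its group, and old WT 7 had the lowest such correlation of all, 0.975.

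*Ccl9* dominated the family in all 3 groups. Per kb of exon, *Ccl9* stood at 12.01 ± 1.33, 17.3 ± 2.59 and 40.7 ± 8.41 CPM per kb in young WT, old WT and old KO. *Ccl6* followed in all 3 groups at 6.43 ± 1.54, 5.99 ± 1.72 and 2.29 ± 0.613 CPM per kb. *Ccl5* came next in each, at 0.995 ± 0.447, 3.97 ± 1.76 and 1.63 ± 0.714 CPM per kb. *Ccl2* came after it, at 0.361 ± 0.438, 1.09 ± 0.206 and 0.648 ± 0.346 CPM per kb. Libraries of *Ccl9* and *Ccl6* did not overlap on this scale in any group, those of *Ccl6* and *Ccl5* overlapped in old WT and old KO, and those of *Ccl5* and *Ccl2* in young WT and old KO. The group means of the remaining 5 genes were at most 0.595 CPM per kb. *Ccl9* made up 73.6% ± 3.84 of the summed CPM of the 9 members in young WT and 75.6% ± 1.76 in old WT, and 94.6% ± 1.25 in old KO.

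**Figure D1:**
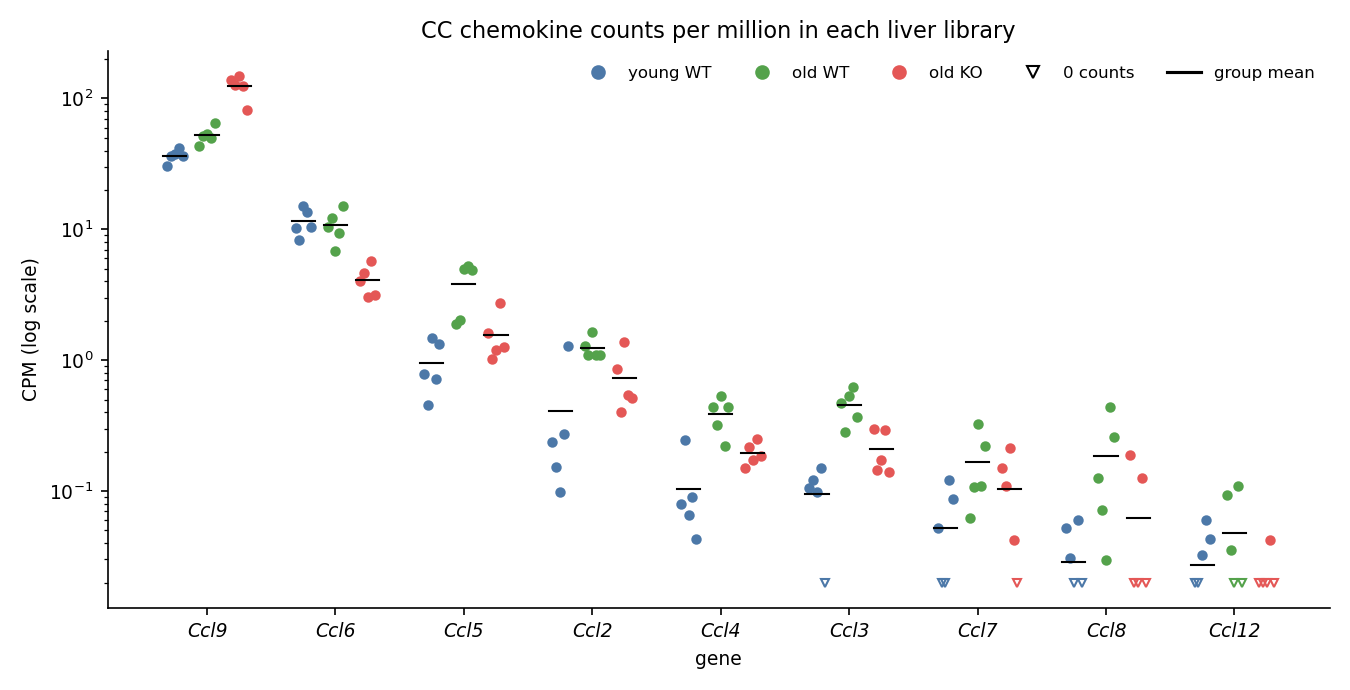
CPM on a log scale for the 9 CC chemokines in each of the 15 liver libraries, by group, with bars at the group means and open triangles for libraries with 0 counts. The old KO points of Ccl9 lie above, and those of Ccl6 below, all WT points of the same gene.

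Between young and old wild-type livers, the comparison that asks what age alone does, *Ccl5*, *Ccl2* and *Ccl9* rose and *Ccl6* did not pass the test. The increase was 4.03-fold for *Ccl5*, 3.26-fold for *Ccl2* and 1.44-fold for *Ccl9*. Age moved a large part of the transcriptome, since 18.8% of the 14258 tested genes passed the threshold and 9.92% were higher. The 3 calls among 4 tested members stand beside that share, and nothing is read from them, because the members were chosen with this contrast known and low-count genes enter the fit through the group in which they are high.

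*Ccl5*, the T cell and monocyte attractant also called RANTES, measured 0.790, 0.458, 1.47, 0.723 and 1.34 CPM in young WT and 1.91, 2.03, 4.95, 5.24 and 4.93 CPM in old WT. Every old WT library exceeded every young WT library, and 2 of the old WT livers were at 1.91 and 2.03 CPM and the other 3 at 4.93 to 5.24 CPM. Its log2 fold change was 2.01 (SE 0.377, edgeR adjusted p = 0.00262). *Ccl9* measured 30.4, 36.5, 37.98, 41.6 and 36.4 CPM in young WT and 43.2, 52.1, 53.5, 49.8 and 64.9 CPM in old WT. The groups again did not overlap, at 0.53 on the log2 scale (SE 0.141, edgeR adjusted p = 0.0177), although the gap between the highest young and lowest old library was small. Without young WT 1 the adjusted p became 0.0511 at a log2 fold change of 0.47.

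*Ccl2*, the main CCR2 ligand, measured 0.237, 0.153, 0.0978, 0.271 and 1.29 CPM in young WT and 1.28, 1.10, 1.64, 1.10 and 1.10 CPM in old WT. The young liver at 1.29 CPM was young WT 6, within the old range, and the other 4 young livers were below all old livers. The log2 fold change was 1.71 (SE 0.511, edgeR adjusted p = 0.0298). It was 2.68 without young WT 6 (edgeR adjusted p = 4.28e-04), and the call was lost when any one of 6 other libraries was left out, with the adjusted p at most 0.0791. *Ccl6* measured 10.3, 8.27, 15.2, 13.5 and 10.5 CPM in young WT and 10.4, 12.1, 6.80, 9.38 and 15.1 CPM in old WT. These ranges coincide almost fully, with a log2 fold change of −0.10 (95% interval −0.56 to 0.35, edgeR adjusted p = 0.770).

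Counts of the 5 sparse members were mostly higher in old WT. *Ccl3*, a CCR1 ligand, had 4, 4, 3, 5 and 0 reads in young WT and 15, 8, 18, 17 and 10 in old WT. *Ccl4*, its neighbour, had 3, 8, 2, 3 and 1 reads against 14, 9, 18, 6 and 12. In CPM the *Ccl3* groups did not overlap (exact two-sided permutation p = 0.00794, the smallest that 5 against 5 allows), while 1 old WT library of *Ccl4* lay below the highest young one (exact permutation p = 0.0159). Of all tested genes, 11.4% had age groups that did not overlap.

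Apart from *Ccl2*, the MCP genes had few reads. *Ccl8* had 5 reads in all young WT libraries together and 26 in old WT, of which 12 came from old WT 7 alone (exact two-sided permutation p = 0.0397). *Ccl7* had 8 and 25 reads (p = 0.0635 by the same exact test) and *Ccl12* 4 and 7 (exact p = 0.571). At 0 to 3 reads a library, a difference in *Ccl12* was not detectable at this depth.

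Between old KO and old WT livers the family split. *Ccl9* rose 2.35-fold and its neighbour *Ccl6* fell to 0.384 of the old WT level, while *Ccl5* and *Ccl2* had lower means and did not pass the test. The threshold was passed by 0.533% of all tested genes in this contrast, of which 0.112% of the tested genes were higher and 0.421% lower, against 1 higher and 1 lower among the 4 tested members. This contrast was known when the members were chosen, so the counts are only set side by side.

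*Ccl9* in old KO measured 139, 127, 148, 124 and 81.4 CPM, against the old WT values of 43.2 to 64.9 CPM. All 5 old KO libraries exceeded all old WT libraries, with 81.4 CPM in old KO 6 as the lowest old KO value and 64.9 CPM in old WT 10 as the highest old WT value. The log2 fold change was 1.23 (SE 0.142, edgeR adjusted p = 4.86e-04), and it passed under all 8 other settings and in all 15 fits that left out 1 library. *Ccl6* in old KO measured 4.04, 4.61, 3.04, 5.70 and 3.16 CPM, against 6.80 to 15.1 CPM in old WT. All 5 were below every old WT and every young WT library, and the fitted log2 difference was −1.38 (SE 0.225) with an edgeR adjusted p of 0.0194. Its direction held in each fit, but its adjusted p was between 0.0515 and 0.0590 when replicate 1 or 4 of the old WT group, or 4 or 6 of the old KO group, was left out. Non-overlapping genotype groups were seen for 3.2% of all tested genes.

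**Figure D2:**
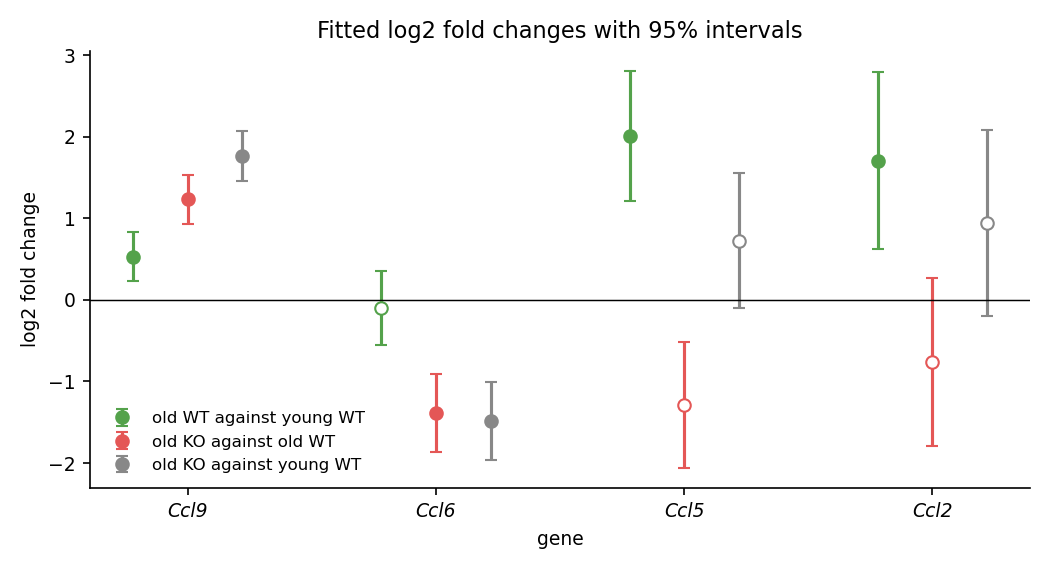
Log2 fold changes with 95% intervals from the edgeR fit for the 4 tested members in the 3 comparisons, filled where the adjusted p was under 0.05. In old KO against old WT, Ccl9 lies at 1.23 and Ccl6 at −1.38, on opposite sides of 0.

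Because the pair moved in opposite directions, the ratio of *Ccl9* to *Ccl6* counts within a library, which does not depend on scaling between libraries, separated the genotypes widely. The young WT ratios ran from 2.5 to 4.41, those of old WT from 4.16 to 7.87 and those of old KO from 21.8 to 48.8. The summed CPM of the 8 members other than *Ccl9* was 13.2 ± 2.96 in young WT, 17.1 ± 3.15 in old WT and 6.99 ± 1.70 in old KO. Most of this sum was *Ccl6*, with means of 11.5, 10.8 and 4.11 CPM in the same groups.

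*Ccl5* measured 1.61, 1.02, 1.20, 2.73 and 1.25 CPM in old KO. All but 1 of these were below all old WT libraries, and the 2.73 CPM of old KO 5 lay between the lower and the upper old WT livers. Its log2 fold change was −1.29 (95% interval −2.06 to −0.51), with an adjusted p of 0.144 in edgeR and 0.0310 in DESeq2, so its call depends on the tool. *Ccl2* measured 0.861, 0.399, 1.37, 0.545 and 0.511 CPM in old KO, with 1 library inside the old WT range and a log2 fold change of −0.76 (95% interval −1.78 to 0.26, edgeR adjusted p = 0.579). An interval of this width leaves both a marked decrease and no change possible.

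Read counts of *Ccl3* in old KO were 8, 4, 4, 7 and 3, and those of *Ccl4* 4, 6, 4, 6 and 4. Both were lower in mean than old WT, at 0.210 against 0.456 CPM for *Ccl3* and 0.195 against 0.391 CPM for *Ccl4*. Their libraries partly overlapped those of old WT (exact two-sided permutation p = 0.0238 and p = 0.0159, both unadjusted). Summed reads in old KO were 13 for *Ccl7*, 8 for *Ccl8* and 1 for *Ccl12*, with exact permutation p of 0.333, 0.167 and 0.286 against old WT. The other CC ligand genes of these clusters, *Ccl1* and the eosinophil attractant *Ccl11*, had at most 2 reads in any library.

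Between old KO and young WT livers, *Ccl9* and *Ccl6* passed the test among the 4 tested members. *Ccl9* was higher by 1.76 on the log2 scale (SE 0.144) and *Ccl6* lower, with a log2 fold change of −1.49 (SE 0.225), in a contrast in which 23.3% of tested genes passed. *Ccl5* and *Ccl2* lay between young and old WT in mean, with log2 fold changes of 0.73 (SE 0.392) and 0.95 (SE 0.538) against young WT that did not pass. *Ccl2* passed this contrast without young WT 6 (log2 fold change 1.92, edgeR adjusted p = 0.00301). Of the sparse members, *Ccl3* and *Ccl4* had higher means in old KO, at 0.210 against 0.0952 CPM and 0.195 against 0.104 CPM (exact two-sided permutation p = 0.0238 and p = 0.0397), with *Ccl7*, *Ccl8* and *Ccl12* at exact p of 0.333, 0.603 and 0.286. The 3 comparisons share their libraries in pairs and are not independent.

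The knockout mice carry 2 copies of the DNA closest to the disrupted *Rps6kb1* allele, and the labels and methods give no genotype of that stretch, so loss of S6K1 and inherited DNA linked to the allele cannot be told apart for genes this close. In the genotype contrast, 5 of the 99 other tested genes within 5 Mb of *Rps6kb1* passed the threshold (5.05%), and 2 of these 5 were members chosen with this contrast known. Without the 4 tested members the count was 3 of 95 genes (3.16%). The share did not fall steadily with distance. Within 2.5 Mb it was 1 of 54 (1.85%), and between 2.5 and 5 Mb, where *Ccl9* and *Ccl6* lie, 4 of 45 (8.89%). It was 0 of 112 between 5 and 10 Mb, 1 of 350 between 10 and 20 Mb and 4 of 618 over 20 Mb away on chromosome 11. On other chromosomes 64 of 13051 genes passed (0.49%). In the age contrast, in which both groups carry wild-type *Rps6kb1*, the shares were 13.1% within 5 Mb (10.5% without the members) and 18.9% on other chromosomes.

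These 5 genes were *Ccl9*, *Ccl6*, *Slfn8*, *Slfn9* and *Dhx40*. *Slfn8* and *Slfn9*, Schlafen genes expressed in immune cells, lie between the chemokine clusters and fell, with log2 fold changes of −2.53 and −0.81 (edgeR adjusted p = 1.19e-04 and 0.0450). *Dhx40*, a helicase gene 0.27 Mb from *Rps6kb1* that was named after its values were seen, had a log2 fold change of −1.05 (edgeR adjusted p = 4.84e-07). *Ccl9* was the only one of the 5 that was higher in old KO. Between *Ccl2* and *Ccl4*, 22 tested genes were not members, of which 2 passed by genotype and 4 by age.

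**Figure D3:**
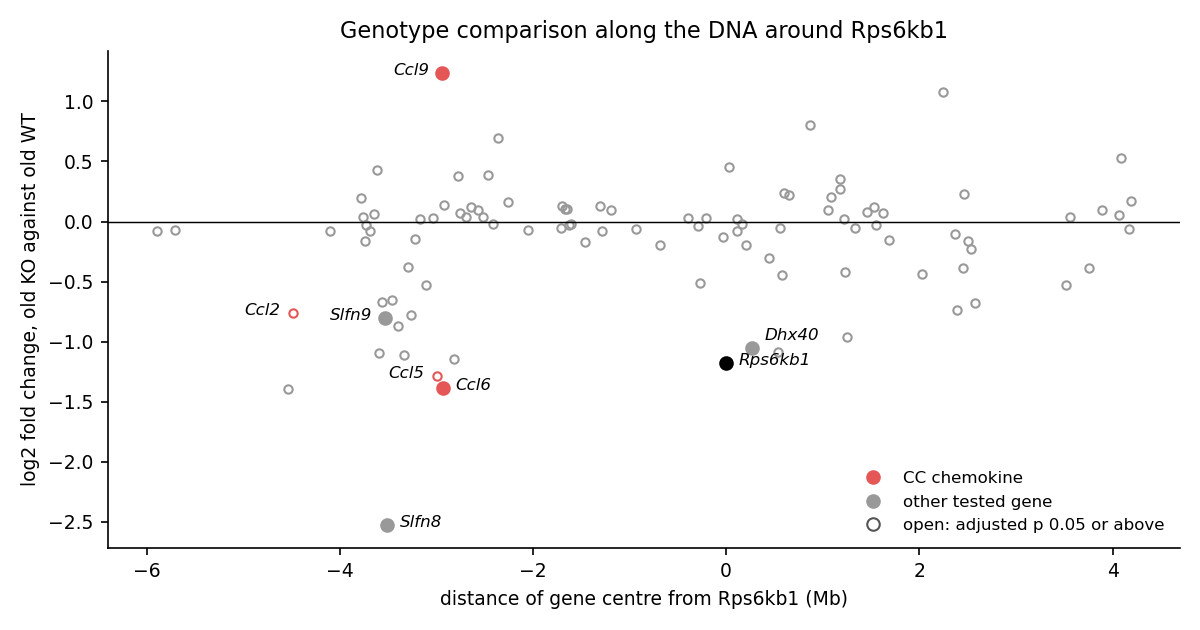
Log2 fold change between old KO and old WT for each tested gene within 6 Mb of Rps6kb1, against the distance of its centre from that gene, with filled points where the adjusted p was under 0.05. Ccl9 stands alone above 1 among the filled points, and Ccl6, Slfn8, Slfn9, Dhx40 and Rps6kb1 lie below 0.

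Little of the members' transcript sequence was shared with another coding transcript. Of the 50-base windows of annotated coding transcripts, 0% were shared with another gene for 8 of the 9 members, and 56 of the 2989 *Ccl9* windows (1.87%) occurred in transcripts of 145 other genes. The 50-base length is that of the reads. Only exact matches among coding transcripts were searched, and the share of reads that fell in such windows was not measured. *E230016K23Rik*, a non-coding gene on the opposite strand, spans *Ccl6* but shares no exonic base with it and had 177 reads over the 15 libraries. The opposite-strand gene model *Gm17268* across *Ccl2* had 0 reads.

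Receptors of these ligands were scarce in the same livers, and those named here are some of the listed ones. By age *Ccr2*, the receptor on monocytes for CCL2, and the atypical receptor *Ackr1* rose (log2 fold changes 1.06 and 0.90, edgeR adjusted p = 0.0485 and 0.0448). *Ackr2*, a scavenger that clears CC chemokines, fell, with a log2 fold change of −1.10 (edgeR adjusted p = 0.00255). By genotype these 3 did not pass in edgeR, with log2 fold changes of −0.37 for *Ccr2*, −0.37 for *Ackr1* and −0.13 for *Ackr2* (adjusted p = 0.754, 0.680 and 0.877). All 5 tested receptors of the list had negative log2 fold changes by genotype. An unadjusted edgeR p under 0.05 was seen for 2 of them, and 0 passed with any of the 3 tools. *Ccr1*, the receptor through which CCL6 and CCL9 act, was too low for the fit, at 0.165, 0.299 and 0.403 CPM in young WT, old WT and old KO.

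Among 16 listed transcription regulators of chemokine genes, 5 rose with age and none fell. They were the interferon regulators *Irf7* and *Irf1*, the NF-kB subunit *Nfkb2*, *Stat3* and the AP-1 subunit *Fos*, with log2 fold changes from 0.35 for *Stat3* to 1.10 for *Irf7*. By genotype 2 of the 16 fell and none rose, against 3 called in DESeq2 and 0 in limma voom. *Spi1*, which encodes PU.1, the factor that specifies macrophages, had a log2 fold change of −1.22 (edgeR adjusted p = 0.0290), and *Fos* of −1.47 (edgeR adjusted p = 0.0337). The median log2 fold change of the 16 was −0.21, beside 0.0008 for all tested genes. Over all tested genes, edgeR called 9.92% higher by age and 0.421% lower by genotype.

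Of the 10 CC ligands encoded elsewhere in the genome, 8 were matched to the table and 2 were tested. *Ccl27a* rose with age (log2 fold change 0.66, edgeR adjusted p = 0.0139) and neither passed by genotype with any of the 3 tools, nor at an unadjusted p under 0.05.

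Macrophage markers moved with *Ccl6* in the genotype contrast. By genotype, 8 of 16 macrophage and Kupffer cell markers fell and none rose, all 16 had negative log2 fold changes, and the median was −1.09. The number called was 10 in DESeq2 and 2 in limma voom. Of all tested genes, edgeR called 0.421% lower in this contrast. *Clec4f*, a lectin specific to Kupffer cells, *Cd5l*, a secreted macrophage protein, and the complement genes *C1qb* and *C1qc* were among those that fell, with log2 fold changes of −1.27, −1.47, −1.02 and −0.99. The summed CPM of these markers ran from 402 to 867 across old WT livers, from 264 to 366 across old KO livers and from 324 to 692 across young WT livers, and none of the 16 was at 0 in any group. By age, 1 marker rose (*Lyz2*) and 1 fell (*Cd163*) in edgeR, with 5 called in DESeq2 and 4 in limma voom. Of all tested genes, edgeR called 18.8% by age. Positive log2 fold changes by age were seen in 12 of the 16, with a median of 0.38, while that of *Ccl6* was −0.10.

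Per 1000 CPM of the summed macrophage markers, *Ccl6* stood at 14.0 to 24.6 CPM among old WT libraries and at 10.97 to 16.7 CPM among old KO libraries, which overlap. *Ccl9* on this scale ran from 60.1 to 133 CPM across old WT and from 308 to 535 CPM across old KO livers. The absence of overlap was fixed beforehand, since each old KO liver had higher *Ccl9* and a lower marker sum than every old WT liver. It therefore adds nothing to the *Ccl9* difference in CPM. The part of macrophage content in the *Ccl6* and *Ccl9* differences was not tested.

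**Figure D4:**
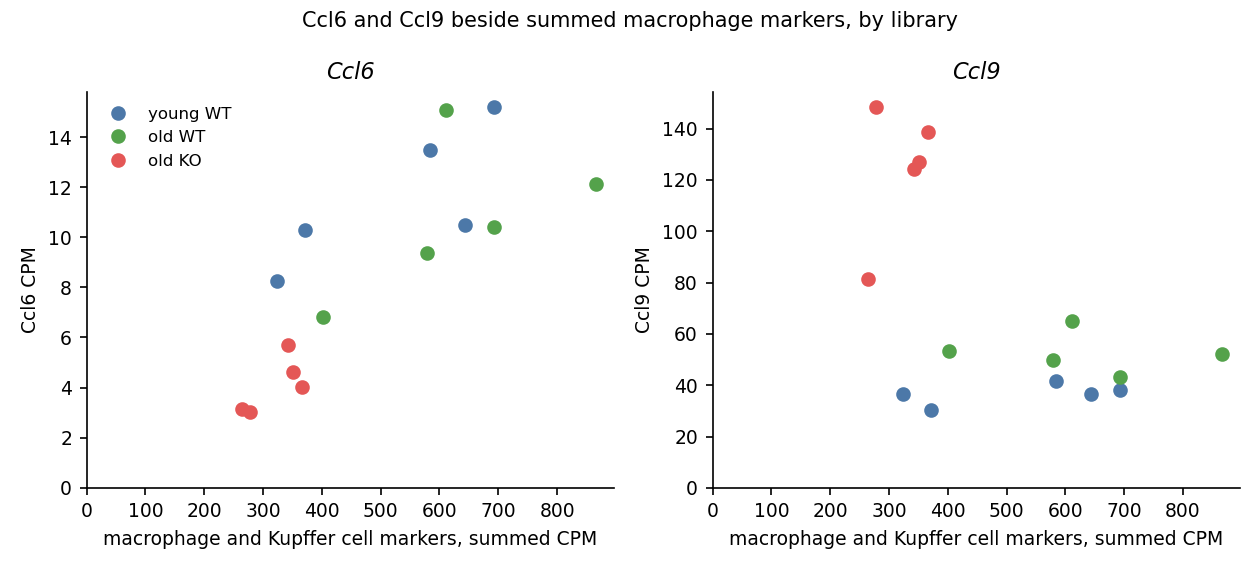
Ccl6 (left) and Ccl9 (right) in CPM against the summed CPM of 16 macrophage and Kupffer cell markers, 1 point for each of the 15 libraries, coloured by group. Old KO libraries have marker sums of 264 to 366 CPM with low Ccl6 and high Ccl9.

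In direction, most lymphocyte and monocyte markers moved with *Ccl5* and *Ccl2* by age. Of 15 tested T and NK cell markers, 6 rose with age, among them *Prf1* and *Gzmb* of cytotoxic granules and *Cd8a* (log2 fold changes 1.64, 1.52 and 2.0), and the young WT, old WT and old KO libraries summed to 4.89 to 10.9, 8.71 to 19.3 and 5.23 to 12.7 CPM over this list. Of 12 monocyte and recruited macrophage markers, 8 rose with age, among them *Itgax* and *Trem2* (log2 fold changes 1.67 and 0.76), with sums of 47.2 to 81.4, 80.2 to 153 and 62.5 to 115 CPM. The age log2 fold changes of the 2 lists were positive in 13 of 15 and 11 of 12 and negative in 2 and 1. DESeq2 called 7 and 8 of them by age and limma voom 3 and 8. Over all tested genes, edgeR called 9.92% higher with age. By genotype none of either list passed in edgeR, with negative log2 fold changes in 15 of 15 and 11 of 12 and an unadjusted p under 0.05 for 3 and 6. In DESeq2 0 and 2 of them passed, and in limma voom 0 of either. Their part in the differences of *Ccl5* and *Ccl2* was not tested.

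Of the other lists, 3 of 8 B and plasma cell markers rose with age (the plasma cell gene *Jchain* the most, at 4.07 on the log2 scale), and none of the 4 tested neutrophil markers passed. *Ly6g* was not detected in young WT or old KO and had 1 read in all old WT libraries together. In the hepatocyte list 2 of 7 tested genes fell with age (*Cps1* and *Apoa1*), as did *Stab2* among 8 endothelial and stellate markers. The share of all tested genes called by age in either direction was 18.8%. No gene of these 4 lists passed by genotype in edgeR, DESeq2 or limma voom, and 1 B and plasma cell and 1 neutrophil marker had an unadjusted edgeR p under 0.05. The hepatocyte markers summed to 88189 to 151724 CPM over all libraries.

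The genes whose log2 CPM ran most like each tested member over the 15 libraries are given as a description, since all share the same 3 groups and libraries. For *Ccl6* they were *Clec4f*, *Slc15a3* and *Trpm2* (Pearson r = 0.914, 0.913 and 0.912). For *Ccl9* they were *Vdac1*, *Cyb5r3* and *Rpl21* (r = 0.934, 0.916 and 0.910), none of which is a macrophage marker in the lists. *Ccl5* ran most like *S100a4*, *Itgax* and *Ifi27l2b* (r = 0.916, 0.907 and 0.905), and *Ccl2* like *Gtf3c6*, the interferon-induced chemokine *Cxcl10* and *Erlin2* (r = 0.944, 0.900 and 0.900).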

How the data were processed

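Poly(A) RNA libraries of 15 whole livers (TruSeq stranded mRNA, single-end reads of 50 bases on a HiSeq 2500) were demultiplexed with CASAVA, aligned by the authors to mm9 with TopHat2 2.0.11 and counted per gene with HTSeq; the annotation and strand setting are not given in the sources used here. The deposited table holds raw counts for 37991 Ensembl identifiers, with totals of 21801754 to 38065359 per library. Each library is 1 mouse.

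Here genes with enough counts (filterByExpr, 14258 genes) were tested with edgeR 4.0.16 (quasi-likelihood test, TMM, 1 fit over the 3 groups, 12 residual degrees of freedom, Benjamini-Hochberg over all tested genes, threshold 0.05), in R 4.3.3. SE is the absolute log2 fold change divided by the root of the F statistic. Alternatives were DESeq2 1.42.0, limma 3.58.1 with voom, other scaling and filters, a replicate block and leaving out each library. Genes outside the filter were compared by an exact two-sided permutation test of log2(CPM + 0.1), over 252 assignments. These exact p-values were not adjusted for the number of genes or contrasts. The script was tested on simulated data. Symbols and NCBIM37 positions came from GENCODE M1 (37205 identifiers positioned), and promoter windows, found for 5 of 9 members, from RefSeq on GRCm38.p6. Of 121 entries of the gene lists, 118 were matched.

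The members and all gene lists were chosen with earlier results of these data known. Genes named beside the members were *Rps6kb1*, *Ccl1* and *Ccl11*, at most 4 passing genes per list and comparison, at most 6 passing genes between the first and last member, and the 3 most similar genes per tested member. For genes with a few reads counting error alone is wide. One item of the receptor list is not reported here.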

Additional observations from a re-analysis of the deposited data

Results flagged for a closer look

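Of 27 sets of 5 libraries (9 members in 3 groups), 3 had a highest value whose gap to the next one exceeded Dixon's 95% critical ratio of 0.71. With normally distributed values chance flags about 1 set in 20, a rate that need not hold for genes with a few reads. *Ccl2* in young WT 6 stood at 1.29 CPM, with the next young WT library at 0.271 CPM. *Ccl4* in young WT 2 stood at 0.244 CPM, with the next at 0.0904 CPM. *Ccl12* in old KO 5 stood at 0.0419 CPM, which is 1 read, with 0 reads in the other old KO libraries. A set with reads in only 1 library always has a ratio of 1, so this flag carries no information.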

How the results depend on the processing

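By age, 3 members passed in the main fit. The number was 5 with no filter on low counts, where *Ccl3* and *Ccl4* enter, 1 with a replicate block, and 1 to 4 when 1 library was left out (1 without young WT 1). Over all genes the age count of 2685 became 899 with the block and ranged from 1748 to 3284 when 1 library was left out. By genotype, 2 members passed, against 1 with the block and 1 to 2 when 1 library was left out. With no filter on low counts the number stayed at 2, *Ccl9* and *Ccl6*, so *Ccl3* and *Ccl4* did not pass by genotype. Over all genes the genotype count of 76 became 305 in DESeq2, 23 in limma voom and 6 with the block, and ranged from 9 to 108 when 1 library was left out. The log2 fold change of *Ccl6* by age, not called, ran from −0.25 to 0.03 when 1 library was left out and was above 0 without young WT 3 (0.0256) and without old WT 5 (0.0233). Same-numbered libraries did not deviate together (correlations of −0.16 to 0.08), so no pairing by number was visible. Such correlations cannot show that there is none, and the labels do not say what the numbers mean. The block leaves out 3 libraries whose number occurs once. Under it *Ccl2* and *Ccl9* by age and *Ccl6* by genotype had edgeR adjusted p of 0.152, 0.282 and 0.279. The cause of these changes was not tested otherwise. *Ccl9* by genotype and both members of the contrast of old KO with young WT passed under every alternative. Depth limits the 5 members outside the filter, which had at most 18 reads in any library.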
